A study of Neurospora crassa with 10 samples.

Results

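The genes described here are the 243 intervals at the front of the list of highly expressed wild-type genes deposited with a study of histone turnover in Neurospora crassa, a filamentous fungus. They were taken in file order, are called the front genes below, and make up 243 of the 2433 rows of that list and of the 9729 genes in 4 expression lists. The authors do not state what the row order means. The list they come from was itself chosen by expression, so their place in it is a description and not a finding. The study placed a FLAG-tagged histone H3 under the promoter of the light-induced gene vvd at the his-3 locus (Pvvd::hH3-3xFLAG::his-3+) and labelled 10 anti-FLAG libraries from germinated conidia, 2 each of wild type, Δdim-2::hph, Δdim-5::bar, Δhda-1::hph and Δhpo::hph. The wild type, Δdim-2 and Δhda-1 strains are mat a, and the labels give no mating type for Δdim-5 and Δhpo. All 5 groups carried the tagged gene, grew for 18 h at 32 °C in darkness, and received 100 mM hydroxyurea for 3 h and blue light of 465 nm for 2 min. No values of single libraries were used, so genotypes were not compared and read depth is unknown.

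In a growing fungal cell, messenger RNA is dominated by genes for glycolysis, protein synthesis and the cell wall, which is built continuously at hyphal tips. Neurospora also responds to blue light through the White Collar complex, which switches on carotenoid synthesis genes and vvd, the gene of a photoreceptor that dampens the same response. H3K9me3, trimethylation of histone H3 at lysine 9, marks the constitutive heterochromatin of this fungus, which lies mostly over gene-poor, AT-rich DNA. The lists carry positions only, with no expression value and no usable strand. The comparisons below therefore set the front genes beside the other 2190 rows of their list, beside the 10 successive blocks of about 243 rows into which that list was divided, and beside all 9729 genes. No test over genes was run. Intervals are 95% binomial intervals (Wilson for shares, order statistics for medians), which treat genes as independent and cover counting error only.

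The first 10 rows held 5 genes with a symbol. Row 1 was ccg-14 (NCU07787, linkage group V, 301242 to 304089), a clock-controlled gene for a small secreted protein. Row 2 was gpd-1 (NCU01528, II, 3180104 to 3182245), which encodes the glycolytic enzyme glyceraldehyde-3-phosphate dehydrogenase and is also known as the clock-controlled gene ccg-7. Rows 3 and 8 were ccg-13 (V, 678921 to 680033) and ccg-15 (V, 5755664 to 5759137), whose other names in the gene table, ncw-7 and acw-1, are those of a non-anchored and an anchored cell wall protein. Row 10 was gel-3 (V, 672325 to 674860), a gene of the glucanosyltransferase family that remodels cell wall glucan. The other 5 of the first 10 rows, NCU00399, NCU07232, NCU05395, NCU07569 and NCU06110, have no symbol in the table.

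Named genes were frequent at the front and thinned out along the rows. A symbol other than the locus tag was held by 88 of the 243 front genes (36.2%, 30.4 to 42.4). The share was 21.3% of the other rows of the list and 11.5% of all listed genes. Of all 1118 listed genes with a symbol, 88 were thus front genes, the background for the groups matched by symbol below. Each of the other 9 blocks had fewer named genes, between 34 and 66. Within the front genes, 29 of the first 48 rows had a symbol (60.4%), against 13 of the last 51 (25.5%). A symbol reflects how well a gene has been studied. Naming also rose with expression class: 2.84% (lowest), 8.02% (25-50%), 12.3% (50-75%) and 22.8% (highest) of genes had one. Counts of groups matched by symbol carry this uneven naming, and its cause was not tested.

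The 4 glycolytic and fermentation genes found by the names searched stood in the front rows. Besides gpd-1 these were cfp in row 11 (VII, 3384904 to 3387654), which encodes pyruvate decarboxylase, pgk in row 36 (IV, 1370566 to 1372853), the gene of phosphoglycerate kinase, and fba in row 82 (V, 220460 to 223264), the gene of fructose-bisphosphate aldolase. The search covered 9 names and missed other named genes of this class, such as adh-1 in row 17, an alcohol dehydrogenase gene, so the 4 are not a complete pathway.

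Translation genes followed further down the rows. Of 10 genes for cytosolic ribosomal proteins matched by the names searched, 9 were front genes, in rows 93 to 243. The other, crp-15, stood in row 324. The 9 were cyh-2 (row 93), the cycloheximide resistance gene, crp-5 (106), crp-4 (155), crp-10 (157), crp-7 (174), un-16 (190), crp-3 (192), crp-2 (231) and po (243), the gene of the stalk protein P0. The ubiquitin fusion gene ubi::crp-6, a front gene in row 99, was missed by the search and is not among them. Most ribosomal protein genes carry no such symbol in the table and were not counted. The elongation factor gene tef-1 stood in row 13 (I, 1711539 to 1714654) and the factor gene eif5A in row 134, while un-10, also named eif3b, stood in row 1156. Thus 2 of 3 named translation factors were front genes.

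Genes of light response, clock and conidiation filled many front rows. Of 33 listed genes of this group, 15 were front genes, 10 stood further down the highest list, and 8 were in the other 3 lists. Of all 1118 listed genes with a symbol, 88 were front genes. Light-induced members included vvd in row 47 (VI, 2363438 to 2366717), al-1 in row 75 (I, 8029857 to 8032395) and al-2 in row 86 (I, 7920916 to 7924255), the genes of phytoene desaturase and phytoene synthase in carotenoid synthesis. The cryptochrome gene cry stood in row 135 (I, 7931586 to 7935778) and the blue-light-inducible gene bli-4 in row 199. Clock-controlled genes at the front were ccg-16 (row 34), ccg-6 (44), ccg-1 (57), ccg-9 (74), which encodes a trehalose synthase, and the copper metallothionein gene cmt (219), also named ccg-12, beside the 4 of the first 10 rows. The conidiation gene con-8 stood in row 48. The 10 genes further down the list were acu-6 (row 354, also named con-3), bli-3 (428), the photoreceptor gene wc-1 (601), the clock gene frq (718), ccg-8 (758), phr (1127), the hydrophobin gene eas (1140), con-10 (1336), the carotenoid synthesis gene al-3 (1413) and wc-2 (2277), the partner of wc-1. In the other lists were nop-1, phy-2, con-6, frh, fl, phy-1, ccg-4 and con-13. No source used here says whether the cultures behind the ranking saw light.

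Cell wall genes were the other large group. A list by symbol, chosen after the files were seen (acw, ncw, gel, chs and wsc genes), held 29 genes, of which 15 were front genes. Another 11 stood further down the highest list, as far as gel-1 (row 2147) and acw-10 (row 2194). The genes chs-3, gel-5 and chs-6 were in the 50-75%, 25-50% and lowest lists. Among all 1118 listed genes with a symbol, 88 were front genes. The front members of the cell wall list ran from ccg-13 in row 3 to acw-12 in row 227, and 11 of them stood in the first 53 rows. They included the non-anchored wall protein genes ncw-1 (row 14), ncw-3 (19) and ncw-5 (25), the anchored wall protein genes acw-3 (18), acw-8 (22), acw-4 (28), acw-5 (53) and acw-9 (88), and gel-4 (91). The wall stress sensor gene wsc-1 stood in row 41 and the chitin synthase gene chs-5 in row 122. Both ccg-13 and ccg-15 count in this group and in the clock group.

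**Figure D1:**
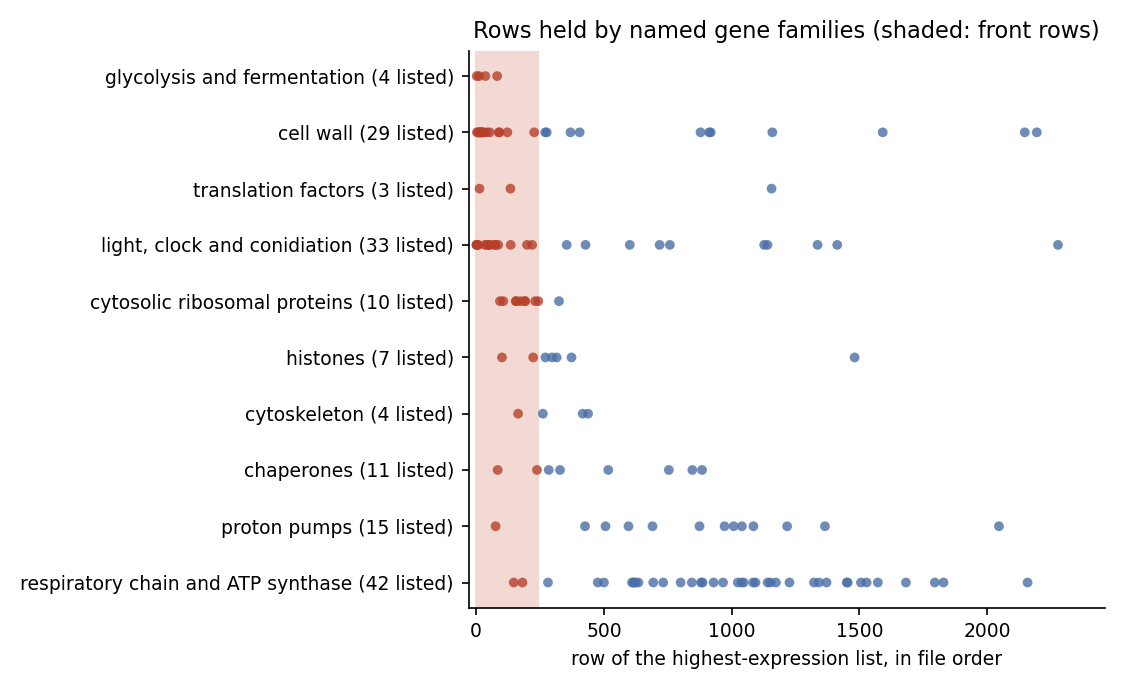
Rows of the highest-expression list, in file order, held by genes of 10 groups. Each point is a gene, the 243 front rows are shaded, red points are front genes, blue points stand further down, and the number in brackets counts the group's genes in all 4 lists. The 4 genes of glycolysis and fermentation lie in rows 2 to 82 and the 10 ribosomal protein genes matched in rows 93 to 324, while genes of the respiratory chain and ATP synthase spread from row 147 to row 2158.

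Other groups reached the front with a few genes, and many families had none there. Of 52 families of symbols that share a prefix and have at least 5 listed genes, 41 held no front gene. Front genes were 88 of all 1118 listed genes with a symbol, so a family of few genes would often hold none. Of 7 histone genes matched, hH3 stood in row 101 (II, 2874241 to 2875647) and hH2B in row 223 (VII, 2490608 to 2492335). The remaining core histone genes followed closely, hH2A in row 271, hH4-1 in row 315 and hH4-2 in row 373, as did the linker histone gene hH1 in row 297. The gene of the variant H2A.Z, hH2Az, was in row 1481. The gene hH3 encodes the native form of the histone that the study tagged, and hH4-1 is its immediate neighbour, 1702 bp away.

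Respiration and proton pumping stood mostly behind the front, as did listed genes with a symbol in general (88 of 1118 were front genes). Of 42 listed genes of the respiratory chain and ATP synthase, 2 were front genes (4.76%), and both belong to the ATP synthase. They were atp-2 for the beta subunit (row 147) and oli, also named atp-9, for the proteolipid subunit (row 181). The other subunit gene of the synthase core, atp-1, stood in row 281. The rest of the group in the highest list had rows of 476 to 2158, and cyc-1, cyt-1 and cya-5 were in other lists. Of 15 proton pump genes, 1 was a front gene (6.67%), the plasma membrane ATPase gene pma-1 (row 76). The genes of the vacuolar ATPase started at row 426 with vma-1, and vma-7 and vma-9 were in the 50-75% list. Of 11 chaperone genes, hsp70-1 (row 84) and hsp80 (row 238) were at the front and 6 stood further down the highest list. The genes hsp60 and hsp78 were in the 50-75% list and hsp30 in the 25-50% list. Of 4 cytoskeleton genes act, the actin gene, was in row 164, and the tubulin genes stood in rows 261 to 438. None of 9 heterochromatin genes was in the highest list, which held 554 of all 1118 listed genes with a symbol. The 4 genes deleted in the study were among the 9.

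Genes just inside and just outside the front rows had a similar spread of lengths, apart from 1 very long interval. The last 5 front genes were NCU05291, NCU10069, NCU02793, NCU05599 and po. Their lengths were 1825, 1355, 34205, 1204 and 2390 bp. The 5 rows after them, NCU05288, NCU03333, NCU09109, NCU03771 and NCU08713, had lengths of 2487, 2493, 1343, 4152 and 1803 bp. Both groups held mostly genes without a symbol.

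Front genes had a shorter median length than the other genes of the highest list. Their median length was 2258 bp (2127 to 2370; interquartile range 1766 to 2965 bp). The other rows had a median of 2800 bp (2719 to 2886), and all listed genes 2129 bp (2098 to 2163). Each of the other 9 blocks had a longer median, between 2533 and 3052 bp. The block next to the front had a median of 2533 bp (2398 to 2813), and the interval of the front genes ended below that of each other block.

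Beside the other rows, the front held fewer genes of 2 kb or more and more genes of 1 to 2 kb. Of the front genes, 11 (4.53%) were 5 kb or longer, against 10.8% of the other rows and 4.90% of all genes. The other blocks held 16 to 34 such genes. Genes of 2 to 5 kb made up 57.2% of the front genes, 65.3% of the other rows and 49.9% of all genes. Genes of 1 to 2 kb made up 36.6% of the front genes, 22.3% of the other rows and 33.9% of all genes. Genes under 1 kb were as rare at the front (4 genes, 1.65%) as in the other rows (1.55%), whereas 11.4% of all listed genes were that short.

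**Figure D2:**
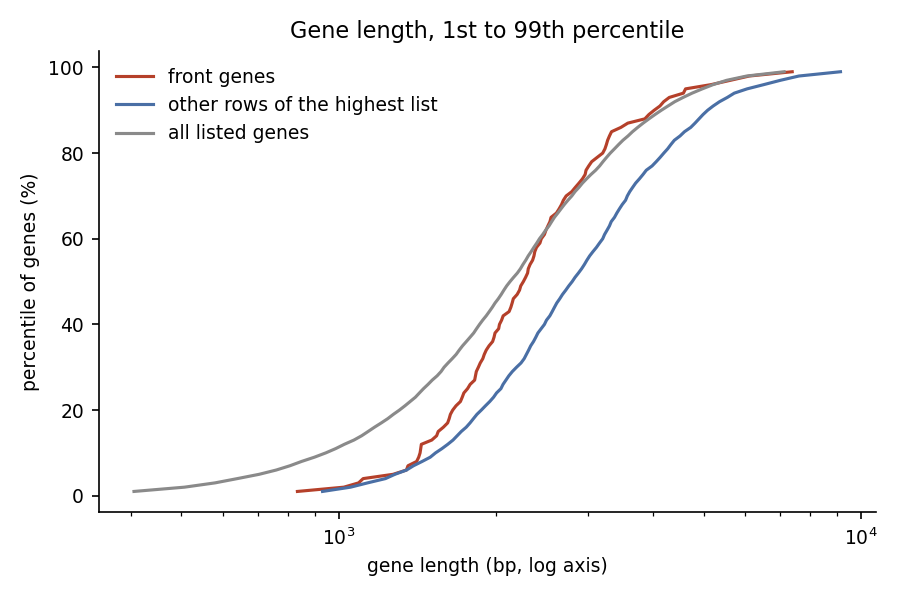
Gene length in bp on a log axis against the percentile of genes, from the 1st to the 99th, for the front genes, the other rows of the highest list and all listed genes. The front genes follow the other rows at the short end and all listed genes above the median of 2258 bp.

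Single front genes reached both extremes of length. The shortest were cmt (662 bp), ccg-1 (772 bp), the gene repressed by glucose, ccg-16 (829 bp), crp-7 (841 bp) and NCU04951 (1016 bp). The 5 longest were NCU04350 (6495 bp), chs-5 (6778 bp), do (7825 bp), also named fks and encoding the catalytic subunit of glucan synthase, NCU05132 (9736 bp) and NCU02793. The last, in row 241 on linkage group I (9117558 to 9151762), spans 34205 bp and is the longest of all 9729 intervals. Whether this interval is a single gene was not tested. The 9 ribosomal protein genes matched at the front ranged from 841 to 2390 bp.

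Gene length differed along the rows of every list. In the highest list the block medians went from 2258 bp at the front to 3052 bp in block 5 and stood at 2898 bp in block 10. In the 50-75% list they went from 2731 bp in the front block to 2295 bp in the last. The 25-50% list went from 2275 to 1891 bp, and the lowest list from 1667 to 814 bp. The front of the highest list thus had a median close to that of the front of the 25-50% list. Across the 2433 genes of the highest list, Spearman's rho between row and length was 0.11, and within the 243 front genes it was -0.09. The genes share a list and an annotation. Whether the ranking was corrected for length is not stated, so length may be part of it.

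**Figure D3:**
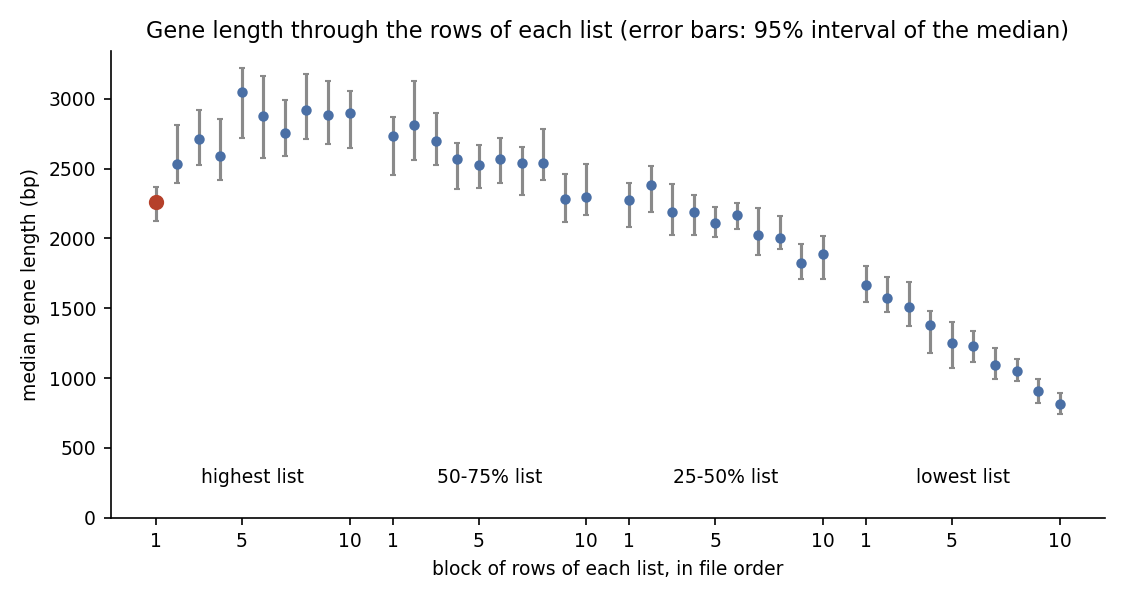
Median gene length in bp, with its 95% interval, in 10 successive blocks of rows of each of the 4 expression lists. The front block of the highest list, in red, has a median of 2258 bp, below the other 9 blocks of that list, and the medians go from 2731 to 814 bp through the other 3 lists.

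The row order showed little relation to position. Spearman's rho between row and locus tag number was -0.003 across the 2432 named genes of the list, and between row and start position it was -0.06 across its 662 genes on linkage group I. The rows thus ran neither along the chromosome nor along the locus tags.

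Taken over all 243, front genes had a shorter smaller gap and a longer wider gap than the other rows. The smaller of the gaps to the neighbouring genes had a median of 190 bp (108 to 294), against 243.5 bp (222 to 265) in the other rows and 275 bp in all genes. This order turned without linkage group I (267 bp against 251.5 bp), in the front 121 rows (301 bp against 239.5 bp) and in the front 486 rows (249.5 bp against 241 bp). The wider gap had a median of 1647 bp (1198 to 1818), against 1265 bp (1186 to 1343) and 1272 bp. A gap of 3 kb or more bordered 63 front genes (25.9%), against 21.5% of the other rows and 20.7% of all genes. The other blocks had 43 to 62 such genes. Block 2 had 62 of them and a longer median wider gap than the front (1760 bp). Of the front genes, 77 (31.7%, 26.2 to 37.8) overlapped an immediate neighbour, against 25% of the other rows and 22.8% of all genes. Block 6 had a smaller gap of 183 bp and an overlap share of 35.0%, so neither value was particular to the front.

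Spacing varied among the front genes, with wide intervals. In 5 successive groups of rows the median smaller gap was 562 bp (190 to 944), 323.5 bp (138 to 628), 71 bp (0 to 232), 165.5 bp (0 to 279) and 172 bp (0 to 477). The median wider gap was 1959 bp (1663 to 3005), 1591.5 bp (1045 to 2992), 937.5 bp (457 to 1799), 1106 bp (767 to 1769) and 1818 bp (691 to 2134). The intervals of the first and the last group overlapped in both measures. The share that overlapped a neighbour was 25% in rows 1 to 48, 20.8% in rows 49 to 96 and 35.4%, 37.5% and 39.2% in the following 3 groups of rows, with intervals that overlap that of the first (14.9 to 38.8).

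Single genes show the range of spacing. The gene ccg-14 had 9667 bp free on its left and 1300 bp on its right, and gel-3 had 5971 and 4060 bp. The conidiation gene con-8 had 1116 and 1955 bp. By contrast inv (V, 5424497 to 5426871), the gene of invertase, lay with all its 2375 bp inside the interval of its neighbour NCU04264, and was the only front gene inside an immediate neighbour. Among the genes that overlapped a neighbour, the median overlap was 336 bp and the largest 2935 bp, in NCU05338. Strand is not known, so overlaps of convergent, divergent and tandem genes cannot be told apart.

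**Figure D4:**
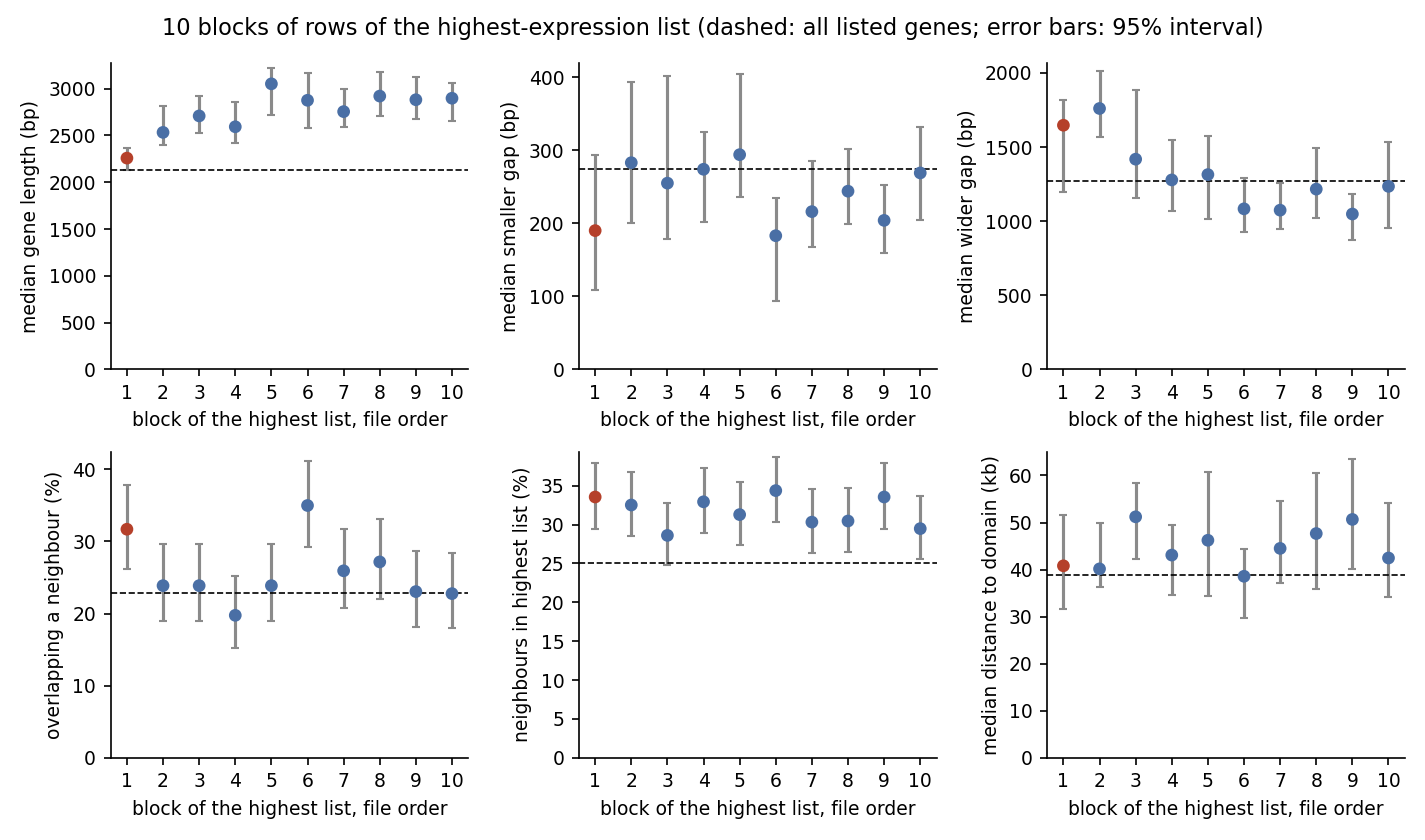
Values of the 10 successive blocks of rows of the highest list (front block in red), with 95% intervals and the value of all listed genes as a dashed line: median gene length, median smaller and wider gap to the neighbours, share overlapping a neighbour, share of neighbours in the highest list and median distance to an H3K9me3 domain. The front block stands below the other 9 in length (2258 bp); in the other 5 panels it lies within their range.

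Neighbours of front genes came from all 4 lists. Of the 486 neighbours, 163 belonged to the highest list (33.5%, 29.5 to 37.9) and 95 to the lowest (19.5%, 16.3 to 23.3). The 50-75% list gave 121 (24.9%) and the 25-50% list 107 (22%). For the other rows, 31.5% of neighbours were in the highest list (30.1 to 32.9) and 17.8% in the lowest, and both values lay within the intervals of the front genes. Over all listed genes the share was 25% for either list. Both neighbours were in the highest list for 25 front genes (10.3%), against 10.6% of the other rows and 7.07% of all genes. Among the 25 were hex-1, the gene of the Woronin body protein, pgk, al-1 and al-2. For 105 front genes (43.2%) neither neighbour was, against 47.7% of the other rows and 57.1% of all genes.

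Some front genes lay between genes of the lowest list. Both neighbours were in the lowest list for 10 front genes (4.12%), against 3.93% of the other rows and 9.45% of all genes. They were the thiamine synthesis gene nmt-1 in row 12 (II, 4177546 to 4180504), acw-3 in row 18 (III, 417349 to 420268), gel-4, and NCU07405, NCU05404, NCU01835, NCU06420, NCU04963, NCU08960 and NCU07182. Among the first 10 rows, 7 had a neighbour in the lowest list: ccg-14, gpd-1, ccg-13, NCU07232, ccg-15, NCU06110 and gel-3. Over all front genes this held for 85 (35.0%), against 31.6% of the other rows and 40.5% of all listed genes.

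Adjacent front genes formed 12 pairs, in 11 runs that held 23 front genes, and the other blocks of the list had 3 to 13 pairs. Of the 486 neighbours of front genes, 24 were themselves front genes, which make up 243 of all 9729 listed genes. The longest run was 3 genes on linkage group II: NCU09475 (4399691 to 4401580, row 159), NCU09476 (4401667 to 4403088, row 105) and aac (4405532 to 4407556, row 109), the gene of the mitochondrial ADP/ATP carrier. Of the 12 gaps, 5 were no wider than 200 bp. The ubiquitin fusion gene ubi::crp-6 (row 99) and crp-5 (row 106) lay 151 bp apart on VII. NCU07829 (row 184) and crp-2 (row 231) lay 55 bp apart on III, un-16 (row 190) and NCU01948 (row 206) 77 bp apart on I, and NCU02707 (row 96) and NCU10498 (row 151) 103 bp apart on I.

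Other adjacent pairs were more widely spaced. In rows 10 and 3, gel-3 and ccg-13 were neighbours on V with 4060 bp between them, the widest gap of a pair. On VI, ncw-1 (row 14) and NCU05136 (row 52) lay 1338 bp apart, and NCU05599 (row 242) and asd-1 (row 46) 477 bp apart. On V, fkr-2 (row 168), the gene of an FK506-binding protein, and hsp80 (row 238) lay 1879 bp apart. On VII, NCU02194 (row 209) and cfp (row 11) were 584 bp apart, and on III, NCU09174 (row 67) and NCU09175 (row 27) 1045 bp. The median distance from a front gene to the nearest other front gene was 45.4 kb (33.0 to 54.4), and the other blocks had 36.5 to 53.5 kb.

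Front genes were spread over all 7 linkage groups. There were 64 on I, 35 on II, 31 on III, 31 on IV, 37 on V, 20 on VI and 25 on VII. Linkage group II held 14.4% of the front genes (10.5 to 19.4), against 10.3% of the other rows and 10.6% of all genes, and the other blocks had 18 to 31 genes there. On the other 6 linkage groups the front count lay within the range of the other blocks. In windows of 1 Mb, 43 of 44 held a front gene, with a median of 6.

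**Figure D5:**
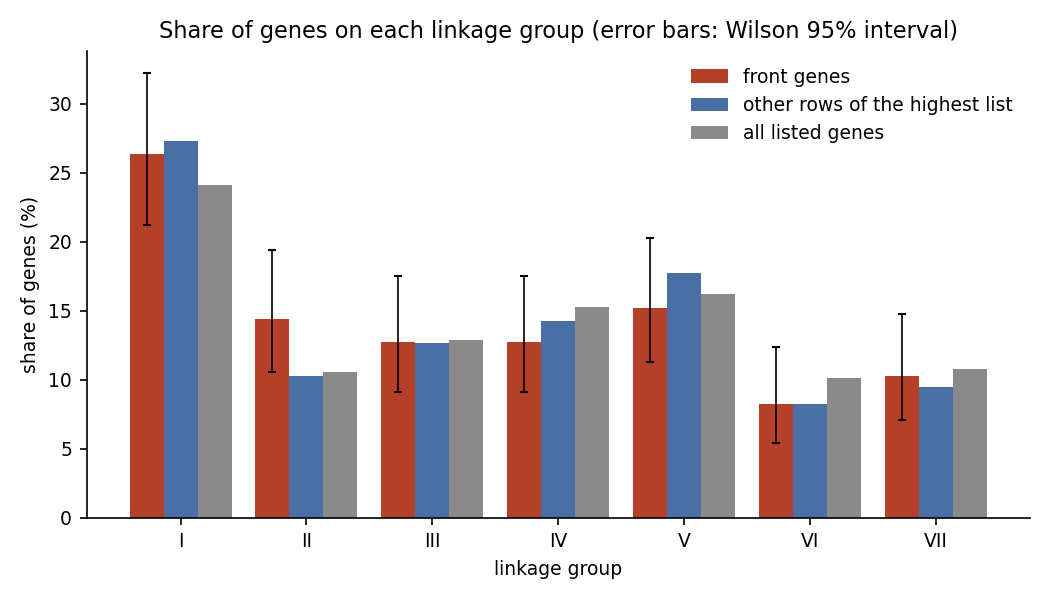
Share in percent of the front genes (with Wilson 95% intervals), of the other rows of the highest list and of all listed genes on each of the 7 linkage groups. The shares of the front genes run from 8.23% on VI to 26.3% on I, and II is the group with the widest difference from the other rows (14.4% against 10.3%).

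The window with the most front genes was on linkage group I, from 7000001 to 8000000, with 12 of its 273 listed genes (4.40%). By share it was exceeded by II, 4000001 to 5000000 (6 of 113, 5.31%), and I, 9000001 to 10000000 (8 of 157, 5.10%). The first window held al-2 and cry, which lie 7330 bp apart with 2 genes between them, and cry lies 94.1 kb before al-1 in the next window. The others with a symbol were csr-1 (row 148), the gene of a cyclophilin, ncw-5 (row 25), the casein kinase gene ck-1a (row 218) and emp-3 (row 226). These were chosen after the window had been found.

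H3K9me3 domains lay about as far from front genes as from other genes of their list. The median distance was 40.8 kb (31.6 to 51.6) for the front genes, 44.0 kb (41.6 to 46.6) for the other rows and 38.8 kb for all genes. The upper quartile was 77.7 kb for the front genes and 96.6 kb for the other rows. A distance of 50 kb or more was found for 107 front genes (44.0%), for 46.0% of the other rows and for 42.3% of all genes. Within the front genes, the medians of 5 successive groups of rows lay between 31.7 kb (18.0 to 55.2) in rows 1 to 48 and 50.4 kb (30.8 to 70.8) in rows 145 to 192, with overlapping intervals.

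A domain reached into 8 of the 243 front genes (3.29%, 1.68 to 6.36), where 2.17% of all listed genes and 2.19% of the other rows were reached. The other blocks had 2 to 9 such genes. None of the 8 was among rows 1 to 48. The overlap had a median of 406.5 bp. All but 9 domains have lengths in multiples of 300 bp, and 3 of the 8 overlaps are no longer than that step.

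The 8 genes differed in how far they were covered. NCU10069 in row 240 (I, 4333774 to 4335128) lay completely inside a domain of 42.6 kb, with free gaps of 20756 and 22254 bp to its neighbours. NCU04963 in row 98 (IV, 872084 to 874450) lay at the edge of a domain of 216.9 kb with 99.3% of its length covered. These 2 genes (0.823%) were the ones with at least 50% coverage, where 0.534% of all listed genes had that much. NCU01835 in row 217 (II, 2229855 to 2231363) was covered over 37.3%, by a domain of 3 kb.

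The remaining 5 were touched at an edge. A domain of 3.3 kb covered 368 bp of acw-9 (row 88; III, 1817033 to 1819468), a domain of 21.3 kb 445 bp of ccg-9 (VII, 1002874 to 1007545), and a domain of 14.4 kb 235 bp of hH2B. NCU05338 in row 69 (II, 1366019 to 1369922) had 182 bp in a domain of 211.2 kb, and NCU10051 in row 63 (VII, 1037324 to 1039598) 98 bp in one of 40.2 kb. The gaps of 211497 bp beside NCU05338 and 119587 bp beside NCU04963 were the widest next to any front gene.

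Other front genes came close to a domain without entering it. Nearest were NCU06420 in row 210 (0.04 kb), mig-6 in row 26 (0.07 kb), NCU05488 in row 222 (0.10 kb), NCU06110 in row 9 (0.16 kb) and NCU08964 in row 163 (0.38 kb). In all, 20 front genes (8.23%) lay under 5 kb from a domain outside it, against 8.31% of the other rows and 9.65% of all genes. Farthest were NCU04442 (263 kb), NCU02905 (253 kb), NCU16673 (251 kb), adh-1 (249 kb) and NCU01776 (247 kb). The genes cry (219 kb), al-2 (208 kb) and al-1 (195 kb), which share a stretch of I, were also far from any domain. Other genes of light, clock and conidiation were nearer. The distance was 112 kb for vvd, 15.4 kb for con-8, also on I, 14.6 kb for ccg-1 and 9.44 kb for bli-4, and a domain reached into ccg-9. For hH3 it was 19.7 kb.

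The share of front genes near the ends of the linkage groups was close to that of all listed genes. Under 200 kb from an end lay 15 of them (6.17%, 3.78 to 9.93), against 4.66% of the other rows and 7.21% of all listed genes, and the other blocks had 6 to 20. In the front 486 rows the share was 4.32%, against 4.93% of the rows after them. They included crp-7, hsp70-1, aac with NCU09475 and NCU09476, the catalase gene cat-1 (row 205) and mig-6. The nearest was NCU10572 in row 211, 31.3 kb from an end of IV.

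Locus tags of 10000 and above were also uncommon. They were held by 9 front genes (3.70%, 1.96 to 6.89), by 4.61% of the other rows and by 9.81% of all listed genes. Of the 9, emp-7 in row 16 (3062 bp) was the only one with a symbol, and NCU16673 stood in row 49. The only interval of all lists with no match in the gene table was also a front gene, row 39 on III (1584834 to 1585858), 1025 bp long and 117 kb from a domain.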

How the data were processed

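The files the authors deposited are 4 interval lists of genes split by normalized wild-type expression and 1 list of H3K9me3 domains. Positions in bp were the only values used. Per the submitters' processing notes the tools were Bowtie2, HOMER, SICER and deepTools; versions, settings, genome build and the source of the expression values: not given in the sources used here. In the deposited lists the score is 0 and the strand + in all 9729 rows. Starts were read as counting from 0 and are printed from 1, and 10 empty domain rows were skipped.

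Names come from a RefSeq gene table (NC12). An identical position was found there for 9490 of 9729 intervals and a mirrored one on VI for 238, since the files hold a segment of VI inverted; 1 stayed unnamed. The front genes are the first 243 of 2433 rows, the row count divided by 10. Neighbours are adjacent by start over all 4 lists, overlaps count as a gap of 0, and ends are the outermost listed features. Groups of genes were matched by symbol or synonym. CenH3 and rid were not matched by name, and planned groups of proteasome and aminoacyl-tRNA synthetase genes were not counted. Groups by product description and all sequence features were not run. The named genes are the first 10 rows, the last 5 and the 5 after them, extremes of length and domain distance, genes in domains, adjacent front genes and members of the groups; other names were chosen after their values were seen. Members and groups were chosen with earlier results of these data known. Python 3.11.15, pandas 2.3.3, NumPy 2.4.6 and SciPy 1.17.1 were used. The interval measures were checked against a base-by-base count.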

Additional observations from a re-analysis of the deposited data

How the results depend on the processing

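Of 37 alternatives for 7 values, 29 stayed within the 95% interval of the reported value, and in 31 the front genes stayed on the same side of the other rows. The median length was 2377.5 bp for the front 486 rows and 2118 bp with intervals cut at overlaps with neighbours, below the other rows in all 5 alternatives. The smaller gap was not stable: it was 301 bp in the front 121 rows, against 239.5 bp in the other rows, and 267 bp without linkage group I, against 251.5 bp; both gaps summed gave 1932 bp and the wider gap alone 1647 bp, each above the other rows. The median domain distance was 62.7 kb with domains of at least 5 kb. Domain overlap was 0.823% with at least 50% of the gene covered, and 2.88% of front genes lay under 100 kb from an end. Under 200 kb from an end, the front 486 rows went to the other side of the rest (4.32% against 4.93%). The causes were not tested. The wider gap, the distance without genes near ends and the neighbours without overlapping pairs were added after seeing the data. No paired analysis was possible because no values per library were used. Depth is unknown, and lists without expression values limit every statement to position.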
